A study of Mus musculus with 2 samples.

Results

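Transcript levels of 10 immediate early transcription factor genes were described in sorted mouse lung epithelium: the Fos family (Fos, Fosb, Fosl1, Fosl2), the Jun family (Jun, Junb, Jund), Atf3, Egr1 and Egr2. They were chosen by gene symbol, and all 10 were found, each with 1 transcript entry, among the 22072 gene symbols of the tables. The data were 2 RNA-seq libraries, 1 per genotype, each made from the pooled RNA of 4 adult mice. All mice carried tetOCre together with the floxed alleles Mst1-flx/flx and Mst2-flx/flx and ate doxycycline food (625 mg/kg) for 16 days. The mice of the library labelled Mst1/2 CKO also carried Scgb1a1-rtTA, a transactivator under the promoter of the main club cell secretory protein, so that doxycycline could switch on Cre in secretory airway cells. The control mice lacked that transactivator. The transactivator, active Cre and the deletion itself therefore cannot be told apart. Cells lacking lineage markers and carrying CD326 (Epcam) with intermediate CD24 were sorted, a gate meant to enrich secretory airway cells without motile cilia.

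AP-1 is a dimeric transcription factor built from a Jun protein with a Jun, Fos or related partner such as Atf3; all of these proteins have a basic DNA-binding region followed by a leucine zipper that joins the dimer. Jun proteins can pair with each other, whereas Fos proteins need a partner from another family. Egr1 and Egr2 are zinc finger factors that bind GC-rich sites. Most of these genes are immediate early genes: a growth factor, stretch or stress signal switches them on within minutes, through kinases that act on factors already bound to their promoters, and the mRNAs decay quickly. In lung as in other solid tissues, enzymatic dissociation and sorting are themselves known to induce such genes. No level here from undissociated tissue was analysed.

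Promoter windows are shown because these genes share their mode of induction and had differences of one sign in most members. Windows of 250 bases before the RefSeq transcript start (build GRCm38.p6) were found for 8 of the 10 members; Egr1 and Fosl1 are named only. Capitals mark the core of the cAMP response element (TGACG, the binding site of Creb and Atf proteins), the Jun promoter element TGACATCA, the TATA box TATAAA and the CArG box, the site of serum response factor, on either strand. The windows are chr12:85473640-85473889 (plus strand) for Fos, chr7:19310046-19310295 (minus strand) for Fosb, chr4:95052223-95052472 (minus strand) for Jun, chr1:191183334-191183583 (minus strand) for Atf3, chr10:67537619-67537868 (plus strand) for Egr2 and chr5:32136222-32136471 (plus strand) for Fosl2.
Fos: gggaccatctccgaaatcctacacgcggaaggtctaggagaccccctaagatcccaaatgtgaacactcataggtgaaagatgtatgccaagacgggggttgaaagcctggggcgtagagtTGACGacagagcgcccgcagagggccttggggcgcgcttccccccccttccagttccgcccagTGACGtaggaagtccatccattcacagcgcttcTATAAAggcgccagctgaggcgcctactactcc
Fosb: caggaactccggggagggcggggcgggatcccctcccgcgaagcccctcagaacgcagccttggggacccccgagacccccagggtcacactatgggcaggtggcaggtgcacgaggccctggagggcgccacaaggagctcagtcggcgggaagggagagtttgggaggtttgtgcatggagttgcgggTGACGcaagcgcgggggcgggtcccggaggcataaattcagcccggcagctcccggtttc
Jun: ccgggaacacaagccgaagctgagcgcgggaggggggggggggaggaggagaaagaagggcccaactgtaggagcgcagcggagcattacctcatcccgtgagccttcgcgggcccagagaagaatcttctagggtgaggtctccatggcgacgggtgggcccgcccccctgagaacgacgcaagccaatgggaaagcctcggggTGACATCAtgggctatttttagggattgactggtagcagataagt
Atf3: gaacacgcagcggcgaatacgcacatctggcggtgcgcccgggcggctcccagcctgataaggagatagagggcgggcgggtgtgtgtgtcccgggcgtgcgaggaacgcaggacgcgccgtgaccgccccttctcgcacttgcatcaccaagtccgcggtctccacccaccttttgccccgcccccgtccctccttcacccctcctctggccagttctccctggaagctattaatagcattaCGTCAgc
Egr2: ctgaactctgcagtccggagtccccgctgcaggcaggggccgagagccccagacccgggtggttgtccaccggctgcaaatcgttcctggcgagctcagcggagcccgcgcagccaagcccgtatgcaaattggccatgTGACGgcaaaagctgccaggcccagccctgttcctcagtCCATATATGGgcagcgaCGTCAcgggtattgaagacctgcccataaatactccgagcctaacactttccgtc
Fosl2: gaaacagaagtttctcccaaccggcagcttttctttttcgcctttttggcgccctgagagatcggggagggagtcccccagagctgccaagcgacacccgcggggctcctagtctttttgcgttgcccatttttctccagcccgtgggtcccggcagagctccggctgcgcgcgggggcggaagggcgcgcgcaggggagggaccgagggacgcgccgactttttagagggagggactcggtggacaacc

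The cAMP response element core was present in at least 1 window of 5 of the 8 genes (Fos, Fosb, Junb, Atf3 and Egr2), against 17.7% of 32817 promoter windows of the same length. In Fos it occurred at 129 to 125 and at 66 to 62 bases before the start, with the TATA box at 33 to 28 bases before it. In Egr2, for which the table holds 5 start sites, the printed window has a CArG box between a pair of core matches; CArG boxes were in 1.47% of all windows. The element TGACATCA was found in the Jun window, at 45 to 38 bases before the start, and in 2.93% of all windows. The AP-1 site TGANTCA was in 0 of the 8 genes' windows and in 6.75% of all windows. The GC box GGGCGG was in at least 1 window of 6 of the 8 genes, for Egr2 not in the printed window, and in 32.7% of all windows. The Egr site GCGNGGGCG, which overlaps the GC box where both occur, was in Fosb and Fosl2 and in 4.7% of all windows. A gene with several windows counts if any of them matches, whereas the shares of all windows are per window. The CCAAT box (CCAAT) was in Jun, Junb and Egr2 and in 33.8% of all windows. Fosl2 and Jund had none of the capitalised elements in their windows. A match is a run of letters and not a measured binding site. Bases further upstream were not searched, nor were Egr1 and Fosl1, so a site missing from a window can still lie elsewhere in the promoter.

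Depth was about 8342580 reads on listed transcripts in the library labelled Mst1/2 CKO and 8775120 in the control library, counting a read as the coverage of 47.1 bases, a size inferred from the tables. Levels are in FPKM, fragments scaled by transcript length and by library size, so genes can be compared per length. The intended deletion could not be checked from whole-transcript values: Stk4, which encodes Mst1, had an FPKM of 4.71 in the CKO-labelled library and 5.38 in the control library, and Stk3, which encodes Mst2, had 7.09 and 7.28. The exons removed by Cre are not given in the labels. Of the secretory and alveolar markers, Cyp2f2 of club cells was at FPKM 5305 in the CKO-labelled library and 4694 in the control library, and Sftpc of alveolar type 2 cells at 10270 and 7888, so the sort held alveolar as well as airway transcripts. The club cell gene Scgb1a1 is listed at 0 in both libraries because its estimate failed. With 1 library per genotype there is no replicate error, no difference was tested, and all intervals cover counting error only at the 95% level. In pooled bulk RNA, fewer cells of a type and less RNA per cell cannot be told apart.

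All members were detected in both libraries, over a wide range of levels. Egr1 was the most abundant, with an FPKM of 441 in the CKO-labelled library and 524 in the control library, the 27th and 26th highest gene symbol of each. Fosl1 was the least abundant, at 3.05 and 3.68. The span between them was 144-fold in the CKO-labelled library and 142-fold in the control library. The order of levels was the same in both: Egr1, Jun, Fos, Atf3, Fosb, Junb, Jund, Egr2, Fosl2, Fosl1. At the inferred read size no counting intervals of neighbours in this order overlapped, but Atf3 and Fosb were only 1.08-fold apart in either library, and whether pools of other mice would keep their order was not measured. Together the 10 genes took 0.705% of all FPKM in the CKO-labelled library and 0.853% in the control library.

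**Figure D1:**
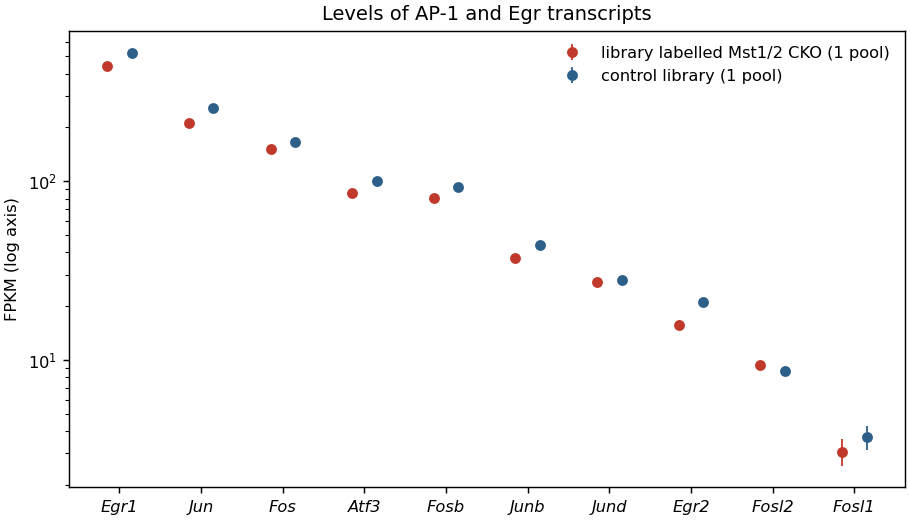
FPKM (log axis) of the 10 members in the library labelled Mst1/2 CKO (red, left of each pair) and the control library (blue); each point is 1 library from 4 pooled mice and bars are 95% counting intervals, mostly smaller than the points. The order of the genes is the same in both libraries, and the red point lies below the blue one for 9 members.

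Most members were slightly lower in the library labelled Mst1/2 CKO, and none differed by 1.5-fold. The FPKM ratio, CKO-labelled over control, was below 1 for 9 of 10 members, against 36.8% of the 9945 genes that reached an FPKM of 1 in either library. Its median was 0.855 over the members and 1.06 over all genes tested. On the scale log2((FPKM + 1) CKO-labelled / (FPKM + 1) control), on which differences of low genes are understated, the median was -0.21 for the members and 0.07 for all genes tested. On that scale 0 of 10 members were at least 1.5-fold apart, against 5.61% of all genes tested in either direction. With so small a share of all genes, the 0 of 10 is no trait of the members. The genes past that fold were 300 higher and 258 lower in the CKO-labelled library, and 208 and 325 once the median difference of all genes was subtracted. After conversion to TPM they were 955 and 1237, but 14070 genes then passed the filter, so these counts are not over the same genes. Members past that fold numbered 0 under each of these scalings. The counting interval of the ratio lay wholly below 1 for 7 members, against 12.4% of all genes tested, and wholly above 1 for 0 members, against 29.7%. The share with an interval wholly below 1 depends on depth. It was 27.0% among the 877 genes with a mean FPKM of at least 20, of which 41.2% had a ratio below 1.

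Jun, the founding member of its family and a partner of Fos, had an FPKM of 212 in the CKO-labelled library and 256 in the control library (chr4:94715727-94718913, mm9). The ratio was 0.826 (interval 0.810 to 0.843). Junb, a Jun relative that can restrain Jun in some settings, had 37.0 and 43.8 (chr8:87500808-87502647), a ratio of 0.844 (0.791 to 0.9001). Both were thus lower by more than counting error. Jund, the member of the family that is expressed in resting cells and is least inducible, had 27.2 and 28.2 (chr8:73221638-73224515), and its ratio of 0.964 had an interval that included 1 (0.906 to 1.03). Jun made up 76.7% of the summed Jun family FPKM in the CKO-labelled library and 78.1% in the control library. For these 3 genes the transcript length equals the span of the locus, so they have no intron in the annotation used and reads from their RNA cannot be told from reads of unspliced RNA or of genomic DNA.

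Fos, the partner that gives AP-1 its strongly inducible form, had an FPKM of 152 in the CKO-labelled library and 165 in the control library (chr12:86814851-86818219), a ratio of 0.923 (0.895 to 0.951). Its relative Fosb had 80.3 and 92.7 (chr7:19888045-19895394), a ratio of 0.865 (0.839 to 0.892). Both inducible Fos genes were lower by more than counting error. Their intervals do not overlap at the inferred read size but do if reads of 100 bases are assumed (0.883 to 0.964 for Fos, 0.828 to 0.905 for Fosb). Fosl1, which encodes Fra1 and lacks the strong activation domain of Fos, had 3.05 and 3.68 (chr19:5447698-5455938), a ratio of 0.828 on about 126 and 170 reads, with an interval that included 1 (0.653 to 1.05). The Fosl1 locus overlaps that of Ccdc85b, listed at 0.925 and 0.974 FPKM, so reads in the overlap could belong to either. Fosl2, which encodes Fra2, was the one member with a ratio above 1, as were 63.2% of all genes tested. It had 9.33 and 8.66 (chr5:32438845-32460212). Its ratio was 1.08 with an interval that included 1 (0.998 to 1.16), and it lay close to the median of all genes tested. Fosl2 also has the longest transcript of the members, 5863 bases. Fos made up 62.1% and Fosb 32.8% of the summed Fos family FPKM in the CKO-labelled library, against 61.1% and 34.4% in the control library. The quotient of Fos over Jun was 0.719 in the CKO-labelled library and 0.644 in the control library.

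Atf3, a stress-induced relative of the Atf and Creb proteins that can repress as a homodimer and pairs with Jun proteins, had an FPKM of 86.3 in the CKO-labelled library and 99.7 in the control library (chr1:192994176-193007212), a ratio of 0.866 (0.831 to 0.902). This is almost the ratio of Fosb, its neighbour in level. Egr1, on chromosome 18, had a ratio of 0.842 (0.830 to 0.854). Egr2, known from mouse work for roles in myelination and in T cells, had 15.7 and 21.0 (chr10:67000617-67004936), a ratio of 0.747 (0.692 to 0.806). Egr2 was the member with the lowest ratio, and 8.04% of all genes tested had a ratio as low or lower. Egr1 was 28.1 times as abundant as Egr2 in the CKO-labelled library and 24.9 times in the control library. No other listed gene overlapped the loci of the members apart from Fosl1.

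**Figure D2:**
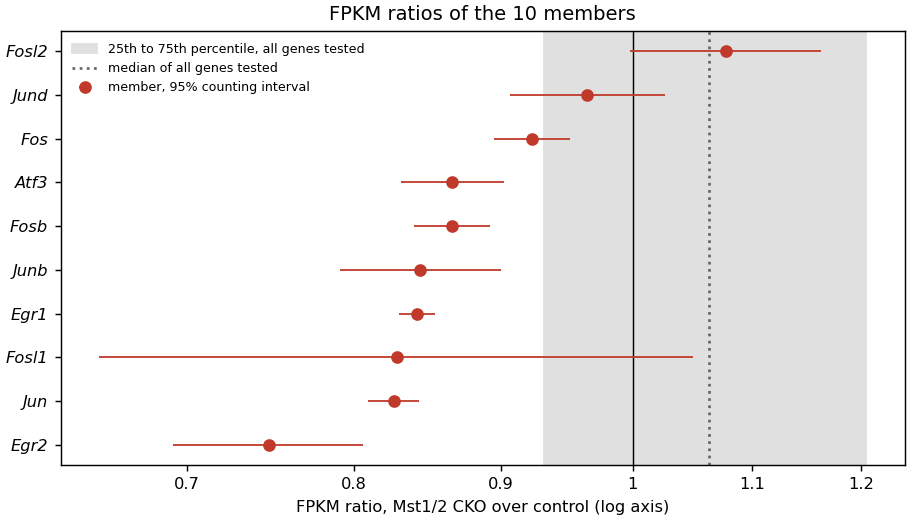
FPKM ratio, Mst1/2 CKO over control (log axis), of each member with its 95% counting interval (red); the grey band runs from the 25th to the 75th percentile of 9945 genes tested (0.932 to 1.21) and the dotted line their median (1.06). The ratios run from 0.747 for Egr2 to 1.08 for Fosl2, and 7 intervals lie wholly below 1.

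The members' ratios spanned far less than their levels. The highest ratio was 1.44 times the lowest. Among all genes tested, the 5th to 95th percentile of the ratio was 0.662 to 1.58. Between 0.80 and 0.90 lay 6 of the 10 ratios (Jun, Fosl1, Egr1, Junb, Fosb and Atf3). That set holds both Egr1, at the top of the order of levels, and Fosl1, at its foot. The interval of Fosl1 (0.653 to 1.05) reached past both ends of that range. The share of all genes in that range was not computed. The summed FPKM was 245 in the CKO-labelled library and 269.8 in the control library for the Fos family (ratio 0.907), 276 and 328 for the Jun family (0.840), and 457 and 545 for the Egr pair (0.838). Among the genes nearest to Egr1 in level over both libraries, by Euclidean distance on the log2(FPKM + 1) scale, were the retinaldehyde dehydrogenase gene Aldh1a1 (FPKM 463 in the CKO-labelled library and 594 in the control library, distance 0.19) and the ribosomal protein gene Rpl10a (456 and 451, distance 0.22). Over 2 libraries this measures closeness of level and little else.

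**Figure D3:**
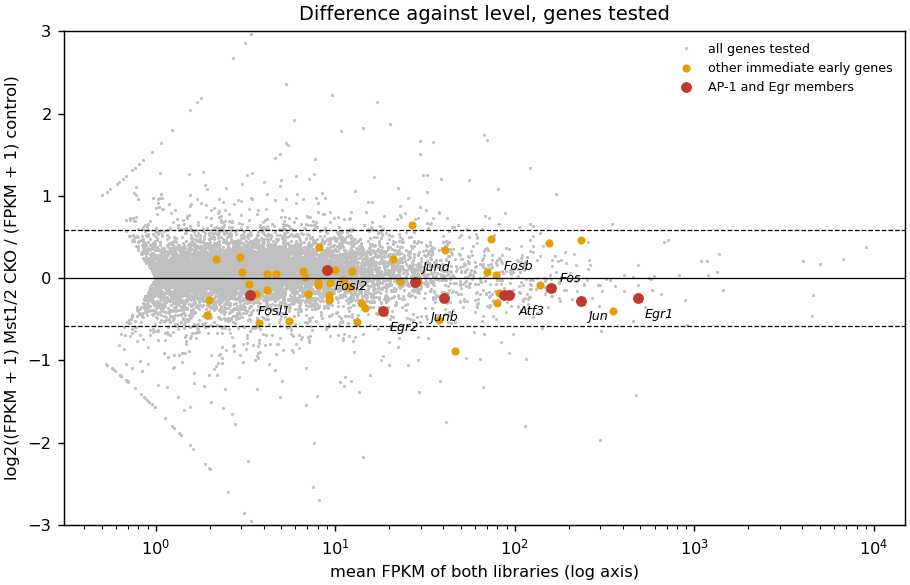
Difference on the log2(FPKM + 1) scale, Mst1/2 CKO over control, against mean FPKM (log axis) for 9945 genes tested (grey), 45 other immediate early genes (orange) and the 10 members (red); dashed lines mark 1.5-fold and 7 genes lie beyond the axis limits. The red points lie between -0.40 and 0.10, inside the dashed lines at every level.

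Other immediate early genes went both ways, with more of them lower than among all genes tested. Of 46 listed, 45 reached an FPKM of 1 in either library; 27 lay below 0 and 18 above on the log2(FPKM + 1) scale, where 36.8% of all genes tested lay below, and the median was -0.05, against 0.07 over all genes tested. On that scale 1 was lower by 1.5-fold or more and 1 higher, against 2.59% and 3.02% of all genes tested. The lower one was Ptgs2, which encodes the inducible cyclooxygenase Cox-2, with an FPKM of 32.5 in the CKO-labelled library and 60.8 in the control library (ratio 0.534, interval 0.512 to 0.557). The higher one was Gadd45b, a growth arrest and stress gene, with 32.9 and 20.7 (1.59, 1.44 to 1.75). Among the most abundant, Zfp36, which encodes an mRNA decay factor, had 304 and 403 (0.756, 0.739 to 0.773), whereas Dusp1, the gene of a MAP kinase phosphatase, had 270 and 195 (1.38, 1.35 to 1.42) and Phlda1 had 177 and 132 (1.35, 1.30 to 1.39). The chemokine gene Cxcl2 had 2.87 and 4.64 (0.618, 0.459 to 0.823). By plain FPKM ratio Cxcl2 was past 1.5-fold lower, though not on the log2(FPKM + 1) scale. The same held for Dusp5 (0.620) and Nr4a2 (0.6504), while Gadd45b alone was as much higher by ratio. The following were picked after their values were seen. The ratio was 0.697 for Ier2, 0.669 for Arc, 0.6504 for Nr4a2 and 0.808 for Nr4a1, and on the other side 1.40 for Cyr61, 1.34 for Per1 and 1.27 for Mcl1. Of the 45 genes, 16 had an interval wholly below 1 and 7 wholly above, against 12.4% and 29.7% of all genes tested.

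Measured factors and kinases known to act on these promoters all differed by less than 1.5-fold. Only 5.61% of all genes tested differed by as much, so this is no trait of these genes. Of 6 genes for serum response factor and its partners, 0 were 1.5-fold apart and the median was -0.01 on the log2(FPKM + 1) scale. Srf itself had an FPKM of 8.07 in the CKO-labelled library and 8.93 in the control library, and the coactivator gene Mkl2 had 5.55 and 6.90. The ternary complex factor Elk4 had 9.27 and 8.82 and Elk1 had 1.43 and 1.04. Of 15 measured MAP kinase cascade genes, 12 lay above 0, against 63.2% of all genes tested, and 3 below. None was 1.5-fold apart, and the median of 0.07 equalled that of all genes tested. Mapk3 (Erk1) had 30.5 and 28.6. The kinase gene Map2k7, upstream of Jnk, had 8.35 and 6.88, Mapk12 had 1.93 and 1.32, Rps6ka3 had 11.6 and 10.9, and Rps6ka1 had 3.03 and 3.62.

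Among 21 measured leucine zipper relatives and partners, 2 were lower by 1.5-fold or more, against 2.59% of all genes tested. Higher by as much were 0, against 3.02%, and the median was 0.01. One of the lower ones was Atf5 (FPKM 1.78 in the CKO-labelled library and 3.42 in the control library). Cebpb, which is induced in inflammation, had 5.10 and 7.33. The abundant members Nfe2l2 (83.4 and 72.7), which encodes the antioxidant response factor Nrf2, Atf4 (50.4 and 52.9) and Cebpa (22.4 and 21.7) were within 1.2-fold. Of 5 relatives and corepressors of Egr1 and Egr2, the 3 that reached an FPKM of 1 had ratios above 1, as did 63.2% of all genes tested; Egr4 and Wt1 stayed under it in both libraries. Egr3 had 3.24 and 2.57, and the corepressor genes Nab1 and Nab2, whose products bind Egr proteins, had 5.02 and 4.57, and 6.98 and 5.51. Of these 3 ratios, Nab2's alone had an interval wholly above 1 (1.27, 1.098 to 1.46). Nab2 is itself known as an Egr1 target.

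Genes known in other settings as targets of AP-1 or Egr factors had list medians above the 0.07 of all genes tested. Of 14 measured AP-1 targets, 9 lay above 0 and 5 below, near the 63.2% of all genes tested that lay above. Their median was 0.24 on the log2(FPKM + 1) scale, while the summed FPKM of the list, led by Fth1, had a ratio of 0.970, on the other side of 1. The membrane protease gene Mmp14 was higher, at an FPKM of 4.91 in the CKO-labelled library and 2.46 in the control library (ratio 2.00, interval 1.65 to 2.42), and the intermediate filament gene Vim, typical of mesenchymal cells and leukocytes, was lower, at 2.52 and 6.65 (0.379, 0.303 to 0.471). The ferritin gene Fth1 had 248 and 293, Mt2 (a metallothionein) 72.6 and 51.1, and Krt18 56.7 and 67.9. Of 12 Egr targets, 4 were higher by 1.5-fold or more on that scale and 1 was lower by as much, against 3.02% and 2.59% of all genes tested. By plain FPKM ratio Tgfb1 (1.51) was also past 1.5-fold higher. The median was 0.18. Pdgfa had 15.9 and 8.66 (1.83, 1.56 to 2.16) and Pdgfb 2.62 and 0.930 (2.82, 2.15 to 3.75); both encode platelet-derived growth factor chains. The angiogenic factor gene Vegfa had 41.2 and 22.8 (1.81, 1.71 to 1.91), and the adhesion molecule gene Icam1 had 48.0 and 27.4 (1.75, 1.65 to 1.86). The member at least 1.5-fold lower was Tnf, at 1.12 and 3.32 (0.336, 0.235 to 0.475), and the tissue factor gene F3 had 15.6 and 15.3. Of the 12, 8 lay above 0, near the 63.2% of all genes tested, so the direction count is not a result about Egr targets. Alveolar type 1 cell markers were also higher in the CKO-labelled library, and their part in these values was not tested.

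Heat shock genes, which are also switched on by tissue handling, had a median of -0.12, against 0.07 over all genes tested. Of 10 listed, 6 lay below 0, against 36.8% of all genes tested, and none was 1.5-fold apart, against 5.61%. Hspa8 had an FPKM of 603 in the CKO-labelled library and 592 in the control library, Hsp90aa1 174 and 150, Hspb1 111 and 131, and Hspe1 36.04 and 49.7.

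**Figure D4:**
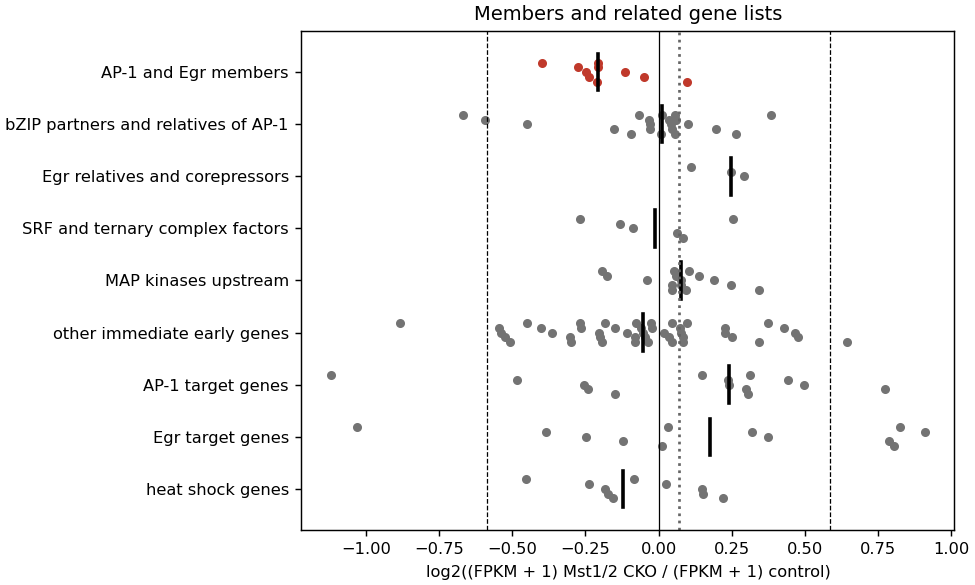
Difference on the log2(FPKM + 1) scale, Mst1/2 CKO over control, of each measured gene of the members (red) and of 8 related lists (grey); thick black bars are list medians, dashed lines mark 1.5-fold and the dotted line is the median of all genes tested (0.07). The median of the members, -0.21, is the lowest of the 9 rows.

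Markers of several cell types differed between the libraries by more than the members did. On the log2(FPKM + 1) scale, 3.02% of all genes tested were at least 1.5-fold higher in the CKO-labelled library and 2.59% as much lower. Counts at 1.5-fold below are on that scale, on which differences of low genes are understated. Summed over 9 alveolar type 1 cell markers, FPKM was 297 in the CKO-labelled library and 114 in the control library, with Ager at 107 and 32.9 and 7 of 9 measured markers at least 1.5-fold higher. Over 9 leukocyte markers, which include Ptprc (CD45) at 0.172 and 0.519, the sums were 6.54 and 13.5, and 4 of 6 measured were at least 1.5-fold lower. The other two were higher: Csf1r had 1.80 and 0.984 (ratio 1.83, 1.43 to 2.37) and Cd79a had 1.06 and 0.527 (2.02, 1.11 to 3.71). Over 6 mesenchymal markers the sums were 7.73 and 19.0, with 2 of 4 measured at least 1.5-fold lower. Dcn led both sums, at 3.79 and 11.9. Ratio intervals lay wholly below 1 for Dcn, Mfap4 and Col3a1 but included 1 for Col1a1, Col1a2 and Pdgfra. Over 5 endothelial markers the sums were 6.40 and 10.6, mostly from Kdr (5.11 and 9.05), the 1 measured, which was at least 1.5-fold lower. Of the unmeasured endothelial markers, Pecam1 and Tek had ratios below 1, and Cdh5 and Cldn5 above 1. Over 5 basal cell markers the sums were 7.52 and 21.8, with 2 of 4 measured at least 1.5-fold lower. Mucous cell markers summed to 10.1 and 31.4, with 4 of 4 measured at least 1.5-fold lower, and Tff2 among them listed at 0 in the CKO-labelled library. Ciliated cell markers summed to 53.3 and 33.9. All 6 measured lay above 0, against 63.2% of all genes tested, and 2 of them were at least 1.5-fold higher. Alveolar type 2 cell markers summed to 14172 and 11358, with 0 of 9 at 1.5-fold, and club cell markers to 6287 and 6708, with 3 of 7 lower and 1 higher. Members of the AP-1 and Egr group are expressed in many of these cell types; the part of cell composition in their lower values was not tested.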

How the data were processed

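RNA-seq was performed on 2 libraries, 1 per genotype, each from RNA of 4 mice pooled before library preparation. The authors processed reads with TopHat and Cufflinks (mm9), per the submitters' processing notes; versions, read length and strandedness were not given in the sources used here. By the file headers, each of 28107 transcript rows holds the deposited FPKM, a coverage signal (the mean read depth that the authors deposited), a length and an estimation status, which was OK for all members. FPKM was summed per gene symbol. Genes entered when FPKM reached 1 in either library (9945), and differences were taken as log2 ratios with a pseudocount of 1. Approximate reads are coverage times length over 47.1 bases, the median of values from 25 to 75 bases in single-transcript rows. Of single-transcript rows worth 1 to 10 such reads, 23.1% in the CKO-labelled library and 23.7% in the control library lay within 0.1 of a whole read, so whole reads were not recovered and no count test was run. Intervals of ratios are exact Clopper-Pearson 95% intervals on these reads, scaled by a depth ratio of 0.895, and for genes with several transcripts centred on the FPKM ratio; intervals of levels are exact Poisson intervals. They cover counting error only, and PCR copies are not separate molecules. The procedure was tested on simulated whole-read counts only. Because whole reads were not recovered here, that test does not check the intervals given.

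The members and lists (8 related gene lists and markers of 9 cell types) were chosen with earlier results of these data known. Named from each list were the 3 most abundant genes, the 3 with the largest difference and every gene past 1.5-fold; of marker lists, sums and single examples are given. A few genes that this rule names are not reported here. Promoter windows come from RefSeq (GRCm38.p6) and were not joined to mm9 coordinates. Python 3.11.15, pandas 2.3.3, scipy 1.17.1 and matplotlib 3.10.9 were used.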

Additional observations from a re-analysis of the deposited data

How the results depend on the processing

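Across a pseudocount of 0.1, no filter on low values, a filter at FPKM of 5, the highest row per symbol, TPM, subtraction of the median difference of all genes, rows with status OK, and subtraction of the median of each length decile (the last chosen after seeing the data), 0 members were 1.5-fold apart, and the members' median difference stayed between -0.28 and -0.21. Members with a ratio below 1 numbered 9, or 8 with the filter at 5, which drops Fosl1, and 10 with the length trend removed, where Fosl2 had a ratio of 0.984. Without that correction its interval lay wholly above 1 (1.01 to 1.15) when reads of 36 bases were assumed. The counts over all genes were 300 higher and 258 lower; they were 614 and 476 with a pseudocount of 0.1, 161 and 104 with the filter at 5, and 955 and 1237 with TPM, in which more genes pass the filter (14070). Genes of the related lists at least 1.5-fold lower numbered 5; they were 8 with a pseudocount of 0.1, 2 with the filter at 5, 15 with TPM and 8 with the median subtracted. No paired analysis was possible because there is 1 library per genotype.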
